A study of Mus musculus with 24 samples.

Results

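The comparison described here asks what deletion of the nuclear receptor PPARα does to the liver transcriptome of mice whose hepatocytes already lack the transcription factor FoxO1, after 3 weeks on a high-fat diet (HFD). Livers labelled HFD LFPKO carry the deletion of both genes (FoxO1-/-; PPARα-/-), and those they are set against, labelled HFD LFKO, carry the FoxO1 deletion alone (FoxO1-/-). Floxed alleles were recombined by Albumin-cre, a transgene that is active in hepatocytes from early life, so both deletions are constitutive. Whether other liver cells keep both genes was not tested. All mice were fasted for 4 h before the liver was taken. The 6 libraries, 3 per group, were chosen by their sample labels from 24 libraries in 8 groups of 3, in which 4 genotypes were each kept on a regular diet (RD) or the HFD. Of the other groups, RD LFPKO and RD LFKO give the same genotype contrast on the regular diet, and HFD LPKO (PPARα-/-) and HFD WT (FoxO1lox/lox; PPARαlox/lox) give the PPARα deletion with FoxO1 present. The labels give no sex, age or strain, and do not say that each library came from a separate mouse, so the p-values measure the spread between these libraries.

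PPARα is a fatty acid-activated receptor that pairs with RXR and drives the genes by which the liver takes up, activates and burns fat: acyl-CoA and carnitine shuttling, mitochondrial and peroxisomal β-oxidation, microsomal ω-hydroxylation by Cyp4a enzymes and ketone body synthesis. FoxO1 is held out of the nucleus by insulin signalling and, in fasting, drives glucose release and restrains fat synthesis genes. Liver also differs between the sexes through the pattern of growth hormone pulses, which sets male-biased genes such as the major urinary proteins and female-biased genes such as Cyp2b9 and several Cyp4a genes.

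Expression was measured as length-scaled transcript abundance (TPM) per gene. Across the 6 libraries the listed TPM summed to between 968446 and 993338, and between 10037 and 10692 genes reached 1 TPM; read depth is unknown from TPM. Foxo1, the gene deleted in both groups, was at 0.250, 0.346 and 0.304 TPM in the HFD LFPKO libraries and at 0.362, 0.341 and 0.401 TPM in the HFD LFKO libraries, while it averaged 4.77 ± 0.729 TPM (SD, n = 3) in HFD WT livers. Ppara was at 57.5, 63.5 and 60.0 TPM in the HFD LFPKO libraries, against 42.1, 68.8 and 62.6 TPM in the HFD LFKO libraries (log2 fold change 0.09, 95% interval -0.21 to 0.38). The Ppara level was therefore not lower in the libraries labelled with its deletion, and in the groups with FoxO1 it averaged 80.9 ± 8.74 TPM in HFD LPKO livers and 43.0 ± 5.39 TPM in HFD WT livers (SD, n = 3 each). A gene total counts every exon that is still transcribed and the labels do not say which exons the lox sites flank, so this level does not check the deletion. The Y-linked genes Ddx3y (13.4 to 21.5 TPM) and Eif2s3y (21.8 to 36.3 TPM) were expressed in all 24 libraries.

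At an adjusted p under 0.05 (limma on log2(TPM + 1), Benjamini-Hochberg over the 10551 genes tested), 1117 genes differed between HFD LFPKO and HFD LFKO livers, which is 10.6% of the genes tested. Of these, 195 were higher in HFD LFPKO livers (1.85%) and 922 were lower (8.74%), and the median log2 fold change of all genes tested was -0.13. The split depends on how libraries are scaled. The major urinary protein (Mup) genes took 28.5%, 23.8% and 20.3% of all TPM in the HFD LFPKO libraries, against 17.7%, 10.9% and 6.52% in the HFD LFKO libraries, and mitochondrial-genome transcripts took 21.7%, 16.4% and 18.9% in HFD LFPKO, against 23.4%, 22.2% and 21.9% in HFD LFKO. After median-of-ratios scaling 490 genes were higher (4.64%) and 657 lower (6.23%), and with Mup and mitochondrial-genome transcripts left out 655 were higher (6.23%) and 516 lower (4.91%). The median log2 fold change was then 0.01 and 0.06. With Mup transcripts alone left out 641 genes were higher and 463 lower, and with mitochondrial-genome transcripts alone left out 193 were higher and 1458 lower. Of the 195 genes called higher, 188 were called higher under all 3 scalings; of the 922 called lower, 516 were, and no call changed its direction. For 2200 genes (20.9%) the 3 values of either group lay wholly above or below those of the opposite group.

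The HFD LFKO libraries also differed among themselves. On the leading principal component of all 6 libraries, which held 51.3% of the variance, the HFD LFPKO libraries lay at -36.7, -18.9 and -6.38 and the HFD LFKO libraries at -1.77, 26.4 and 37.4, so HFD LFKO replicate 1 was nearest to the HFD LFPKO libraries. Leaving that library out gave 187 genes higher (1.77%) and 2251 lower (21.3%). Leaving out HFD LFKO replicate 2 gave 136 and 470, HFD LFKO replicate 3 gave 132 and 419, and HFD LFPKO replicate 1 gave 186 and 469. Fitted on the 6 libraries alone, 61 genes were higher and 206 lower.

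Microsomal fatty acid hydroxylation held the pair of named genes with the largest falls. Cyp4a enzymes add a hydroxyl group to the far end of a fatty acid, the entry to its breakdown into dicarboxylic acids, and 4 of the genes lie next to each other on mouse chromosome 4 (GRCm38, GENCODE M21): Cyp4a14 at chr4:115486200-115496142 on the minus strand and, on the plus strand, Cyp4a10 at chr4:115518264-115533649, Cyp4a31 at chr4:115563649-115579015 and Cyp4a32 at chr4:115600969-115621602. Cyp4a14 stood at 0.942, 1.16 and 4.14 TPM in the HFD LFPKO libraries, against 126, 524 and 750 TPM in the HFD LFKO libraries (log2 fold change -7.05, SE 0.70, limma adjusted p = 8.6e-07). Cyp4a10 stood at 3.23, 1.55 and 3.14 TPM in HFD LFPKO, against 82.2, 283 and 487 TPM in HFD LFKO (log2 fold change -5.99, SE 0.55, limma adjusted p = 3.3e-07). Every HFD LFPKO library was far below every HFD LFKO library for both genes, and HFD LFKO replicate 1 was the lowest of its group. Cyp4a32 (log2 fold change -3.40) and Cyp4a31 (-2.54) fell with them, at limma adjusted p of 6.2e-09 and 3.0e-08, again with no overlap between the groups. The 4 genes are close in sequence, so reads can be split between them and the size of each fall is less certain than the direction they share. Of 14 tested genes of this list, 7 fell (50%) and 1 rose (7.14%), against 8.74% lower and 1.85% higher among all genes tested. The median log2 fold change of the list was -0.39. The gene that rose was Cyp4v3, a fatty acid hydroxylase of another subfamily, at 175, 189 and 167 TPM in HFD LFPKO and 147, 143 and 132 TPM in HFD LFKO (log2 fold change 0.33, limma adjusted p = 0.019). Its call was lost without HFD LFKO replicate 2 or 3 or HFD LFPKO replicate 2. Aldh3a2, which oxidises the fatty aldehydes formed on this route, stood at 15.2, 19.1 and 31.2 TPM in HFD LFPKO, against 117, 194 and 262 TPM in HFD LFKO (log2 fold change -3.06, SE 0.31, limma adjusted p = 1.2e-06).

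Most genes of mitochondrial β-oxidation fell. Of 23 tested genes 21 fell (91.3%, against 8.74% of all genes tested) and none rose. The median log2 fold change was -1.27, against -0.13 for all genes. Slc25a20, the carrier that takes acylcarnitines through the inner membrane, stood at 13.3, 13.6 and 14.9 TPM in HFD LFPKO, against 66.4, 89.0 and 101 TPM in HFD LFKO (log2 fold change -2.51, SE 0.17, limma adjusted p = 5.4e-09). Etfdh, which passes electrons from fatty acid dehydrogenases to the respiratory chain, stood at 45.1, 48.0 and 48.6 TPM in HFD LFPKO and at 125, 167 and 192 TPM in HFD LFKO (log2 fold change -1.73, SE 0.11, limma adjusted p = 1.7e-09). The 3 HFD LFPKO libraries lay within a narrow range for both genes and below every HFD LFKO library. The very-long-chain dehydrogenase Acadvl (-1.63), the enoyl-CoA isomerase Eci2 (-2.03), Cpt2, which rebuilds acyl-CoA inside the mitochondrion (-1.53), and the medium-chain dehydrogenase Acadm (-0.82) fell as well, with limma adjusted p between 3.8e-08 for Acadvl and 0.015 for Acadm; Acadm lost its call without HFD LFKO replicate 2 or 3 or HFD LFPKO replicate 1. Cpt1a, the malonyl-CoA-sensitive entry step, did not pass the test: it stood at 117, 134 and 144 TPM in HFD LFPKO and at 139, 152 and 176 TPM in HFD LFKO, ranges that overlap (log2 fold change -0.24, SE 0.12, limma adjusted p = 0.21).

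Peroxisomes shorten very long fatty acids and dicarboxylic acids before they reach mitochondria. Of 27 tested genes of peroxisomal oxidation and peroxisome assembly, 18 fell and none rose (median log2 fold change -0.99). The share that fell was 66.7%, against 8.74% of all genes tested. Decr2, which reduces double bonds of polyunsaturated acyl-CoA, stood at 15.1, 20.2 and 22.6 TPM in HFD LFPKO, against 125, 150 and 172 TPM in HFD LFKO (log2 fold change -2.89, SE 0.15, limma adjusted p = 1.2e-10). The thiolase Acaa1b stood at 38.4, 50.9 and 79.9 TPM in HFD LFPKO, against 299, 511 and 754 TPM in HFD LFKO (log2 fold change -3.15, SE 0.39, limma adjusted p = 1.4e-05). Neither gene overlapped between the groups. The isomerase Ech1 (-2.31), the bifunctional enzymes Ehhadh (-1.84) and Hsd17b4 (-1.64), and the transporter Abcd3 (-1.20) fell with them. Abcd2, a peroxisomal importer of very long-chain acyl-CoA, was at 0.150, 0.144 and 1.12 TPM in HFD LFPKO and at 3.55, 12.6 and 18.4 TPM in HFD LFKO (log2 fold change -2.92, SE 0.38, limma adjusted p = 2.4e-05). HFD LFPKO replicate 3 was the highest of its group for Abcd2 and still below HFD LFKO replicate 1.

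Ketone body synthesis fell at 3 of 6 tested genes (50%, against 8.74% of all genes tested). Acat1, which supplies acetoacetyl-CoA, stood at 73.8, 82.7 and 94.6 TPM in HFD LFPKO, against 148, 180.01 and 206 TPM in HFD LFKO (log2 fold change -1.08, SE 0.15, limma adjusted p = 4.8e-05). Bdh1, which reduces acetoacetate to β-hydroxybutyrate, gave a log2 fold change of -0.28 (limma adjusted p = 0.24). Every HFD LFPKO library was below every HFD LFKO library for Acat1.

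**Figure D1:**
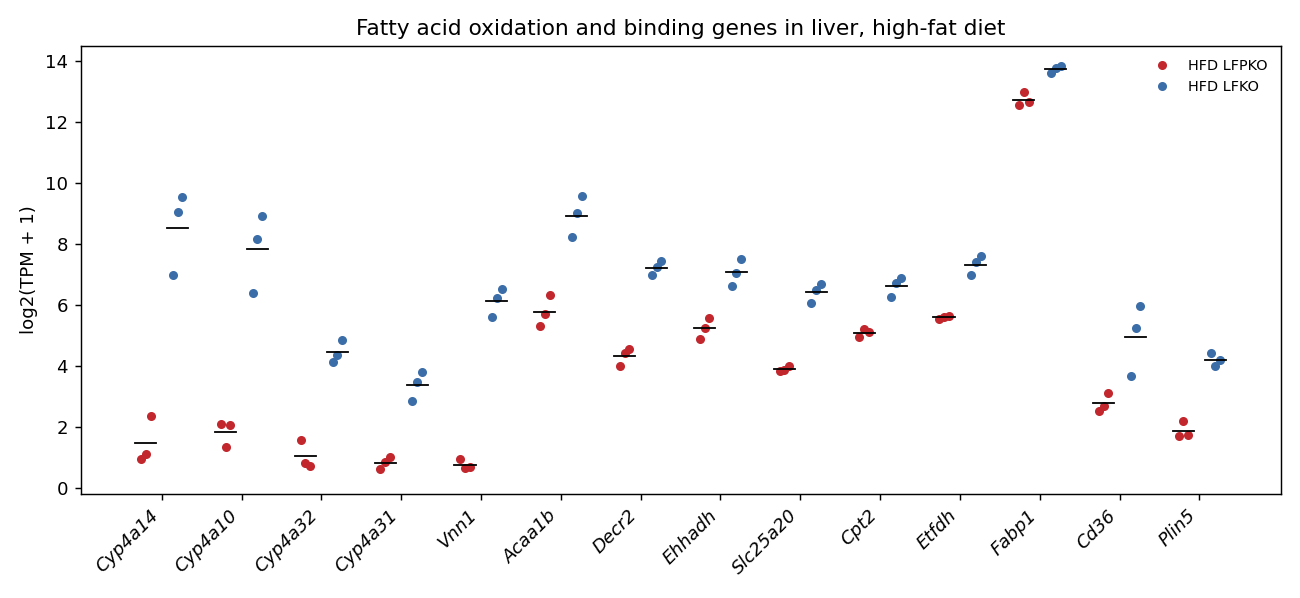
Level per library, as log2(TPM + 1), of 14 genes of fatty acid breakdown, binding and storage, with HFD LFPKO to the left of HFD LFKO, each point a library and each bar a group mean. No gene overlaps between the groups. The group means lie furthest apart for Cyp4a14 (log2 fold change -7.05), at 0.942 to 4.14 TPM in HFD LFPKO and 126 to 750 TPM in HFD LFKO.

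Other established PPARα target genes gave 17 falls and no rise among 29 tested (median log2 fold change -0.81). The falls are 58.6% of the list, against 8.74% of all genes tested. Vnn1, a pantetheinase that releases cysteamine, stood at 0.941, 0.577 and 0.589 TPM in HFD LFPKO, against 48.1, 73.3 and 91.7 TPM in HFD LFKO (log2 fold change -5.36, SE 0.33, limma adjusted p = 1.3e-09). Mfsd2a, a transporter of lysophospholipids, stood at 2.73, 1.11 and 3.00 TPM in HFD LFPKO and at 58.2, 60.0 and 39.4 TPM in HFD LFKO (log2 fold change -4.06, SE 0.58, limma adjusted p = 7.1e-05). Fitm1, which helps lipid droplets bud from the endoplasmic reticulum, stood at 1.70, 1.78 and 1.63 TPM in HFD LFPKO and at 23.1, 31.0 and 37.8 TPM in HFD LFKO (log2 fold change -3.52, SE 0.40, limma adjusted p = 5.5e-06). All 3 genes were near the floor in every HFD LFPKO library. Its relative Fitm2 (-1.68), the retinol saturase Retsat (-2.69) and the small GTPase Rab30 (-2.20) fell too. The secreted factors of this list were lower as well: the lipoprotein lipase inhibitor Angptl4 stood at 27.5, 8.31 and 7.42 TPM in HFD LFPKO, against 80.8, 48.9 and 40.3 TPM in HFD LFKO (log2 fold change -2.08, SE 0.50, limma adjusted p = 0.0094). The fasting hormone Fgf21 was low in both groups, at 0.0968, 0.0607 and 0.186 TPM in HFD LFPKO and at 1.13, 0.896 and 1.65 TPM in HFD LFKO (log2 fold change -0.99, limma adjusted p = 0.013), and its call was lost without HFD LFKO replicate 3. Values this low are compressed by the added 1 TPM, so the log2 fold change understates the difference.

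Fat uptake, storage and hydrolysis genes moved down in part. Of 16 tested genes of fatty acid uptake and binding 7 fell (43.8%, against 8.74% of all genes tested) and none rose. Fabp1, the abundant cytosolic fatty acid carrier, stood at 5979, 8080 and 6487 TPM in HFD LFPKO, against 12389, 14146 and 14630 TPM in HFD LFKO (log2 fold change -1.01, SE 0.19, limma adjusted p = 0.0013). Cd36, a fatty acid translocase, stood at 4.74, 5.43 and 7.67 TPM in HFD LFPKO and at 11.6, 36.6 and 61.2 TPM in HFD LFKO (log2 fold change -2.18, SE 0.41, limma adjusted p = 0.0013). The groups did not overlap for either gene, and HFD LFKO replicate 1 was closest to the HFD LFPKO libraries for both. Slc27a2, an acyl-CoA synthetase and transporter, fell by 0.84 on the log2 scale. Of 20 lipid droplet genes 7 fell (35%, against 8.74% of all genes tested) and none rose. Plin5, which ties droplets to mitochondria, stood at 2.26, 3.54 and 2.28 TPM in HFD LFPKO, against 20.3, 14.9 and 17.2 TPM in HFD LFKO (log2 fold change -2.33, SE 0.36, limma adjusted p = 1.8e-04). The droplet coat gene Plin2 gave a log2 fold change of -0.57 that did not pass the test (limma adjusted p = 0.18). After median-of-ratios scaling 2 droplet genes were higher and 5 lower, so the split of this list is not independent of scaling.

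Carboxylesterases and acyl-CoA thioesterases, which cut esters and acyl-CoA, gave 11 falls and 1 rise among 21 tested genes (median log2 fold change -0.85). Those are 52.4% and 4.76% of the list, against 8.74% lower and 1.85% higher among all genes tested. Ces1d, a triglyceride hydrolase, stood at 54.8, 61.2 and 191 TPM in HFD LFPKO, against 303, 358 and 540 TPM in HFD LFKO (log2 fold change -2.16, SE 0.37, limma adjusted p = 5.3e-04), and Ces1e fell by 1.77. The rise was Ces2c, at 78.6, 52.9 and 36.6 TPM in HFD LFPKO and 20.6, 19.7 and 19.8 TPM in HFD LFKO (log2 fold change 1.37, limma adjusted p = 0.0031). The thioesterase Acot3 spread widely within both groups, at 0.277, 0.699 and 20.4 TPM in HFD LFPKO and 4.55, 73.1 and 158 TPM in HFD LFKO. Its fall of 3.49 on the log2 scale (limma adjusted p = 0.027) comes with overlap between the groups. The call was lost without HFD LFKO replicate 2 or 3, HFD LFPKO replicate 1 or 2, a filter on low values, or the other groups in the fit, and the log2 fold change of Acot3 ranged from -4.92 to -2.50 with 1 library left out.

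The promoters of these fat genes were searched for the direct repeat with a spacer of 1 base that PPARα and RXR bind, in its textbook form relaxed to 1 open base in each repeat unit, on both strands of RefSeq windows (GRCm38.p6) that run from 250 bases before to 50 bases after each gene's start. Of 75 genes that fell, the fat genes together with the lowest genes named here, 57 have such a window and 1 holds a match. Of all 27025 genes with a window 122 do, in 0.381% of all 32851 windows. By window, 2 of the 952 windows of genes called lower hold a match (0.21%), and 2 of the 177 windows of genes called higher (1.13%). The 1 matching gene of the 57 is Fabp1, whose match starts 67 bases before the start site and reads on the minus strand. Fabp1 is shown because it is the only match among the 57 genes, at chr6:71199772-71199864 on the plus strand, with the match in capitals.
Fabp1: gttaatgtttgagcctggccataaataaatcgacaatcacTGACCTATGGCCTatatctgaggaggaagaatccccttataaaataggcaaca
A match is a run of letters and not a measured binding site, and its absence from a window says nothing of the receptor.

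Fat synthesis did not move as a block. Of 16 tested genes of fatty acid synthesis 1 rose and 2 fell (median log2 fold change -0.27), and among 9 desaturases and elongases 2 fell. The share that fell was 12.5% for synthesis and 22.2% for desaturases and elongases, against 8.74% of all genes tested. Srebf1, the transcription factor of insulin-driven lipogenesis, stood at 16.9, 32.5 and 38.02 TPM in HFD LFPKO, against 46.4, 114 and 114 TPM in HFD LFKO (log2 fold change -1.58, SE 0.33, limma adjusted p = 0.0037). Me1, which supplies NADPH for synthesis, stood at 12.9, 17.8 and 33.4 TPM in HFD LFPKO and at 49.7, 79.4 and 82.9 TPM in HFD LFKO (log2 fold change -1.75, SE 0.38, limma adjusted p = 0.0049). Both genes were lower in every HFD LFPKO library than in any HFD LFKO library. In the other direction, Acacb, the acetyl-CoA carboxylase whose malonyl-CoA blocks Cpt1a, stood at 9.55, 10.3 and 10.5 TPM in HFD LFPKO, against 3.84, 5.54 and 6.02 TPM in HFD LFKO (log2 fold change 0.87, SE 0.22, limma adjusted p = 0.011). The synthase Fasn (log2 fold change 0.22, limma adjusted p = 0.66) and the desaturase Scd1 (-1.31, limma adjusted p = 0.22) did not pass the test. The polyunsaturated fat desaturases Fads1 (-0.81) and Fads2 (-0.97) fell, though neither was called without HFD LFPKO replicate 1 or without HFD LFKO replicate 3. Of 10 triglyceride synthesis genes 4 fell (40%) and none rose, and 2 fell without HFD LFKO replicate 2 or 3 or HFD LFPKO replicate 1. The falls were led by the acyltransferase Gpat3, at 0.418, 0.637 and 0.651 TPM in HFD LFPKO and 3.27, 8.68 and 8.46 TPM in HFD LFKO (log2 fold change -2.22, SE 0.26, limma adjusted p = 5.7e-06).

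Among apolipoproteins and genes of lipoprotein assembly, 1 of 19 tested rose (5.26%, against 1.85% of all genes tested) and none fell. That gene was Apoa4, an apolipoprotein of triglyceride-rich particles, at 412, 486 and 485 TPM in HFD LFPKO, against 70.9, 116 and 96.8 TPM in HFD LFKO (log2 fold change 2.30, SE 0.32, limma adjusted p = 6.3e-05). Bile acid synthesis and sterol transport genes gave 9 falls and 1 rise among 21 tested (median log2 fold change -0.50). Those are 42.9% and 4.76% of the list, against 8.74% lower and 1.85% higher among all genes tested. The falls became 6 without HFD LFKO replicate 2 or HFD LFPKO replicate 2 and 3 without HFD LFKO replicate 3 or HFD LFPKO replicate 1. Abcg5 and Abcg8 form the pump that sends sterols into bile. Abcg5 stood at 15.8, 19.5 and 35.2 TPM in HFD LFPKO and at 50.04, 59.4 and 63.4 TPM in HFD LFKO (log2 fold change -1.33, SE 0.21, limma adjusted p = 2.2e-04), and Abcg8 fell by 1.004 (limma adjusted p = 2.6e-04). Both pump genes were lower in every HFD LFPKO library. The rise was Cyp7b1, a hydroxylase of the alternative bile acid route that is also male-biased, with a log2 fold change of 2.02 (limma adjusted p = 0.014) and values that overlap, at 413, 394 and 141 TPM in HFD LFPKO and 181, 67.7 and 26.9 TPM in HFD LFKO. Cyp7b1 lost its call without HFD LFKO replicate 2 or 3, without HFD LFPKO replicate 1 or 2, and with the 6 libraries fitted alone, and its log2 fold change ranged from 1.35 to 2.70 with 1 library left out. Cyp7a1, the rate-limiting enzyme of the classic route, varied so widely in HFD LFPKO (47.9, 6.31 and 24.3 TPM) that its difference from HFD LFKO (39.1, 56.6 and 95.8 TPM) did not pass the test (log2 fold change -1.54, limma adjusted p = 0.15).

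The respiratory chain list depended on the scaling. Nuclear-encoded respiratory chain subunits gave 17 falls (58.6%, against 8.74% of all genes tested) and no rise among 29 tested (median log2 fold change -0.39). The count dropped to 7 after median-of-ratios scaling, to 4 without Mup and mitochondrial-genome transcripts, and to 2 without HFD LFKO replicate 2 or replicate 3; it was 25 without HFD LFKO replicate 1, 3 without HFD LFPKO replicate 1, and 0 when the 6 libraries were fitted alone. The 13 transcripts of the mitochondrial genome gave no call. Amino acid breakdown and urea cycle genes gave 6 falls among 33 (18.2%, against 8.74% of all genes tested). In front were Glud1, the glutamate dehydrogenase (-0.74), and Mat1a, which makes S-adenosylmethionine (-0.93). The list had 3 falls after scaling and 2 without Mup and mitochondrial-genome transcripts. Of all genes 6.23% were lower after scaling and 4.91% without those transcripts. By contrast the 21 mitochondrial oxidation calls stayed at 21 after scaling and 20 without Mup and mitochondrial-genome transcripts, and the 18 peroxisomal calls at 17 under each.

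**Figure D2:**
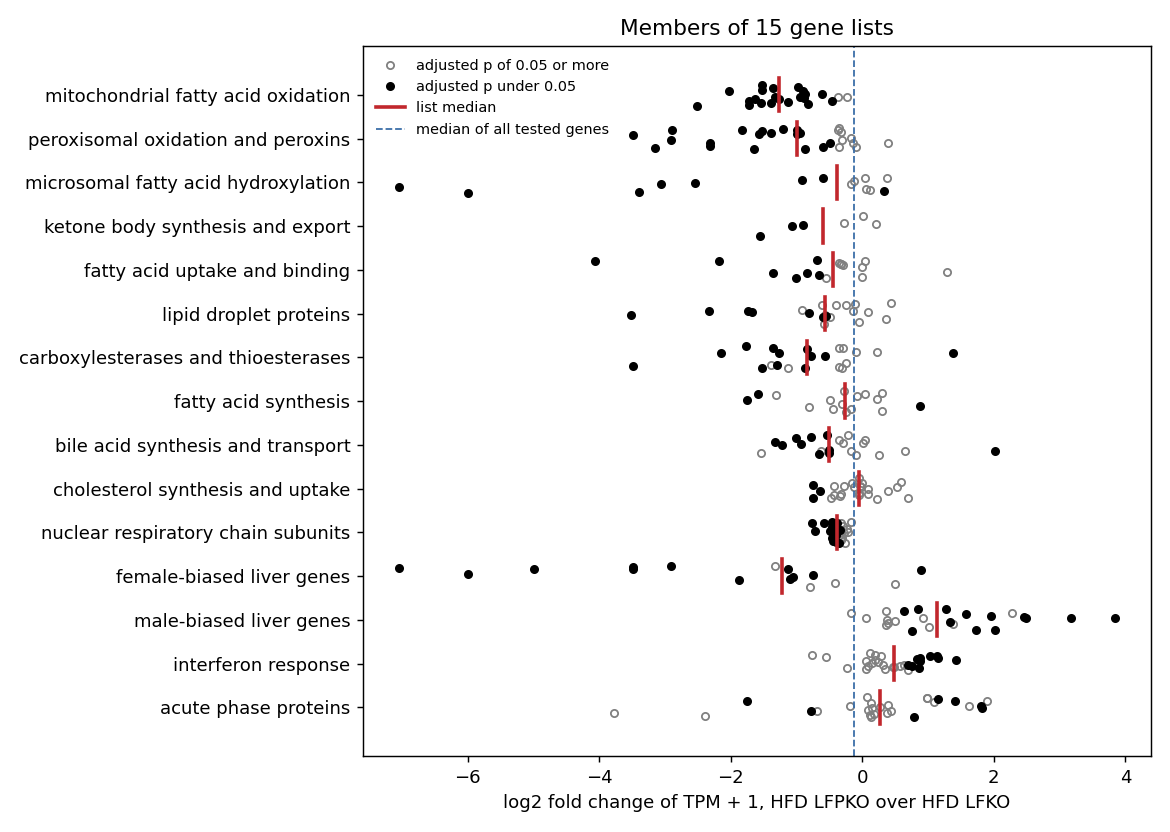
Log2 fold changes of TPM + 1 in HFD LFPKO over HFD LFKO for the tested members of 15 gene lists, filled where the adjusted p is under 0.05 and open otherwise, with the median of each list (upright bar) and of all genes tested (dashed line). Mitochondrial fatty acid oxidation (median -1.27) and female-biased genes (-1.22) lie furthest below 0 among the 15 lists shown, and male-biased genes (1.14) furthest above it.

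Sex-biased genes were called mostly in 1 direction per list. Of 24 male-biased genes tested 13 rose (54.2%) and none fell (median log2 fold change 1.14). Of 16 female-biased genes tested 11 fell (68.8%) and 1 rose (6.25%), with a median of -1.22. Among all genes tested 1.85% were higher and 8.74% lower. The lists are not separate from those above: 4 of the female-biased genes that fell, Cyp4a10, Cyp4a14, Abcd2 and Acot3, are also fat oxidation or thioesterase genes. Mup7, a pheromone carrier at chr4:60066469-60070475 on the minus strand, stood at 66608, 68112 and 46800 TPM in HFD LFPKO, against 37746, 8551 and 892 TPM in HFD LFKO (log2 fold change 3.17, SE 0.79, limma adjusted p = 0.012). Its call was lost without HFD LFKO replicate 3 and with the 6 libraries fitted alone, and its log2 fold change ranged from 1.73 to 4.43 with 1 library left out. Mup21 stood at 2068, 1578 and 1181 TPM in HFD LFPKO and at 635, 308 and 116 TPM in HFD LFKO (log2 fold change 2.47, SE 0.44, limma adjusted p = 8.7e-04). HFD LFKO replicate 1 was the highest of its group and HFD LFKO replicate 3 the lowest for both. Mup genes are near-identical copies, so single members are uncertain. Of 20 tested 4 rose (20%) and none fell, with 8 rises without HFD LFKO replicate 1, 2 without HFD LFPKO replicate 1 or 2, and 1 without HFD LFKO replicate 3.

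Of 18 male-biased genes outside the Mup family 10 rose and 8 were not called. C6, a complement component, stood at 303, 251 and 124 TPM in HFD LFPKO, against 120, 54.4 and 23.0 TPM in HFD LFKO (log2 fold change 1.96, SE 0.39, limma adjusted p = 0.0022). The complement inhibitor Susd4 stood at 12.3, 9.74 and 9.78 TPM in HFD LFPKO and at 6.48, 2.84 and 2.38 TPM in HFD LFKO (log2 fold change 1.33, SE 0.22, limma adjusted p = 3.5e-04). Neither overlapped between the groups, though HFD LFPKO replicate 3 and HFD LFKO replicate 1 were close for C6. C6 averaged 226 ± 92.1 TPM in HFD LFPKO, 65.8 ± 49.4 TPM in HFD LFKO, 179 ± 9.66 TPM in HFD LPKO and 183 ± 32.9 TPM in HFD WT (SD, n = 3 each). By mean, HFD LFKO was the lowest of the HFD groups for C6, as it was for Mup7, Mup21 and Susd4. Gstp1, the π-class glutathione transferase, rose by 1.27 and the protease inhibitor Serpina1e by 1.73. The male-biased P450 gene Cyp4a12a, chosen after its values were seen, was not called, at 102, 89.8 and 33.9 TPM in HFD LFPKO and 110.1, 45.3 and 28.6 TPM in HFD LFKO (log2 fold change 0.37, limma adjusted p = 0.71). On the female-biased side Cyp2b9, a drug-metabolising P450, was listed at 0, 0 and 1.40 TPM in HFD LFPKO, against 8.69, 50.7 and 153 TPM in HFD LFKO (log2 fold change -4.99, SE 0.68, limma adjusted p = 4.6e-05). Cyp2c38 (-3.49) and the flavin monooxygenase Fmo2 (-1.87) fell likewise, and the G protein subunit Gna14 rose (0.89). Prlr, the prolactin receptor and a growth hormone-responsive gene, stood at 14.97, 20.3 and 37.3 TPM in HFD LFPKO and at 54.6, 97.8 and 117 TPM in HFD LFKO (log2 fold change -1.88, SE 0.29, limma adjusted p = 1.8e-04). The Y-linked genes given above were present in both groups, so no library of either group lacked Y-linked transcripts. The male-biased count was 13 after scaling, 10 without Mup and mitochondrial-genome transcripts, 6 without HFD LFKO replicate 3, 8 without HFD LFPKO replicate 1 or replicate 2, and 0 when the 6 libraries were fitted alone. The 11 falls of the female-biased list became 6 without HFD LFKO replicate 3, without HFD LFPKO replicate 1, or when the 6 libraries were fitted alone.

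Interferon-stimulated genes, which cells switch on against viruses and nucleic acids, were called in 1 direction. In HFD LFPKO livers 11 of 30 tested were higher (36.7%, against 1.85% of all genes tested). None was lower and 19 did not pass the test, with a median log2 fold change of 0.48. The promoter search used the textbook interferon-stimulated response element, on either strand, in the same RefSeq windows. Of 22 genes of the list with a window, called or not, 9 hold a match, and of all 27025 genes with a window 82 do. By window, 9 of the 177 windows of genes called higher hold one (5.08%), against 0.271% of all windows. The list is made of known interferon-stimulated genes, so matches among its members lend the rise no support. The sequences below are shown because the genes rose and hold the element. Each line gives the match in capitals with 40 bases on either side (GRCm38.p6): Ifit1 at chr19:34640743-34640853 on the plus strand with 2 matches, Ifit3 at chr19:34583331-34583422 on the plus strand, and Oas1a at chr5:120907494-120907585 on the minus strand.
Ifit1: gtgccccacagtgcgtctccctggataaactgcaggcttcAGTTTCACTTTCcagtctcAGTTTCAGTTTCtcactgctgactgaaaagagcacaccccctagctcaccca
Ifit3: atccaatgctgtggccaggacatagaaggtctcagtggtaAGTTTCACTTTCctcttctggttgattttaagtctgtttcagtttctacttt
Oas1a: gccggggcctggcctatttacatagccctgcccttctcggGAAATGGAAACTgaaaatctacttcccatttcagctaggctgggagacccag
The element stands in reverse in Ifit1 and Ifit3 and forward in Oas1a.

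Usp18, which removes ISG15 from proteins and dampens the receptor, stood at 13.8, 20.5 and 11.6 TPM in HFD LFPKO, against 5.08, 5.05 and 4.67 TPM in HFD LFKO (log2 fold change 1.42, SE 0.22, limma adjusted p = 1.7e-04). Ifit1, which binds foreign RNA ends, stood at 8.75, 14.0 and 9.86 TPM in HFD LFPKO and at 4.58, 4.71 and 3.58 TPM in HFD LFKO (log2 fold change 1.15, SE 0.19, limma adjusted p = 3.5e-04). Ifit3, its partner, stood at 15.4, 23.97 and 16.2 TPM in HFD LFPKO and at 7.31, 9.26 and 6.70 TPM in HFD LFKO (log2 fold change 1.14, SE 0.21, limma adjusted p = 9.2e-04). HFD LFPKO replicate 2 was the highest library for all 3 genes, and no HFD LFPKO library overlapped with HFD LFKO. The membrane protein gene Ifi27 (1.04), the ubiquitin-like modifier Isg15 (0.87), the transcription factor Irf7 (0.87) and the RNA-sensing synthetase Oas1a (0.70) rose as well, with limma adjusted p between 4.8e-04 for Ifi27 and 0.019 for Oas1a; Oas1a lost its call without HFD LFKO replicate 3 or HFD LFPKO replicate 1 or 2. The count of the list was 16 after scaling, 17 without Mup and mitochondrial-genome transcripts, between 9 and 11 rises when 1 library was left out, and 4 when the 6 libraries were fitted alone. Of all genes tested 1.85% were higher before scaling, 4.64% after it and 6.23% without Mup and mitochondrial-genome transcripts. Without HFD LFKO replicate 1, 2 members also fell.

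Few markers of immune cells were called beside these genes. None of the tested recruited macrophage (3), neutrophil (2), or lymphocyte and NK cell (1) markers was called, and 1 of 14 Kupffer cell markers fell. The summed TPM of Kupffer cell markers lay between 170.1 and 243 in HFD LFPKO and between 171.6 and 236.6 in HFD LFKO, and that of recruited macrophage markers between 59.62 and 103 in HFD LFPKO and between 68.64 and 86.4 in HFD LFKO. Neutrophil markers summed to between 1.911 and 8.685 TPM in HFD LFPKO and between 2.144 and 4.752 TPM in HFD LFKO, and lymphocyte and NK cell markers to between 5.098 and 5.412 TPM in HFD LFPKO and between 4.336 and 8.537 TPM in HFD LFKO. The ranges of these 4 immune sums overlap between the groups. Stellate cell and matrix markers summed to between 120.8 and 157.4 TPM in HFD LFPKO and between 177.6 and 195.3 TPM in HFD LFKO, with no overlap, and 1 of 9 tested fell. Sinusoidal endothelial markers summed to between 45.96 and 56.27 TPM in HFD LFPKO and between 54.59 and 98.23 TPM in HFD LFKO, and 1 of 12 tested fell. The share that fell was 7.14% of Kupffer cell, 11.1% of stellate and 8.33% of endothelial markers, against 8.74% of all genes tested. These sums are of unscaled TPM, and no marker of these lists was called under either other scaling. The part of these cell types in the results was not tested. Hepatocyte markers summed to between 62530 and 82160 TPM in HFD LFPKO and between 93730 and 120200 TPM in HFD LFKO; of 12 tested only Alb fell. Alb stood at 19027, 20583 and 26927 TPM in HFD LFPKO, against 43918, 51768 and 66399 TPM in HFD LFKO (log2 fold change -1.28, SE 0.20, limma adjusted p = 1.8e-04). After median-of-ratios scaling 1 hepatocyte marker was higher and 1 lower. Without Mup and mitochondrial-genome transcripts 4 were higher and 1 lower. In whole liver, fewer cells of a type, less RNA per cell and a larger share of TPM in other transcripts cannot be told apart from these sums.

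Acute phase proteins, which hepatocytes secrete in inflammation, were mixed: 5 rose and 2 fell among 27 tested (median log2 fold change 0.28), and 10 rose and 1 fell without Mup and mitochondrial-genome transcripts. The 2 falls are 7.41% of the list, against 8.74% of all genes tested. Of all genes 1.85% were higher, and 6.23% without Mup and mitochondrial-genome transcripts. Without HFD LFKO replicate 3 or HFD LFPKO replicate 1 the list had 4 rises and no fall, and without HFD LFPKO replicate 3 it had 8 rises and 3 falls. The orosomucoids, plasma carriers of lipophilic compounds, were among the risers. Orm1 stood at 1178, 1391 and 930 TPM in HFD LFPKO, against 491, 501 and 330 TPM in HFD LFKO (log2 fold change 1.41, SE 0.18, limma adjusted p = 2.6e-05). Orm2 rose by 1.80 and Orm3 by 1.82 on the log2 scale, and the haem carrier Hpx by 0.79; Orm genes are close copies, so their reads can be split. The fallers were Apcs, serum amyloid P, at 85.3, 87.5 and 69.9 TPM in HFD LFPKO and 214, 319 and 299 TPM in HFD LFKO (log2 fold change -1.75, limma adjusted p = 0.038), and the protease inhibitor Serpina3m (-0.78). Apcs kept its call in only 1 of the 6 fits with a library left out, that without HFD LFKO replicate 1, and lost it without Mup and mitochondrial-genome transcripts and without a filter on low values. Serpina3m lost its call without HFD LFKO replicate 3 or HFD LFPKO replicate 1.

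**Figure D3:**
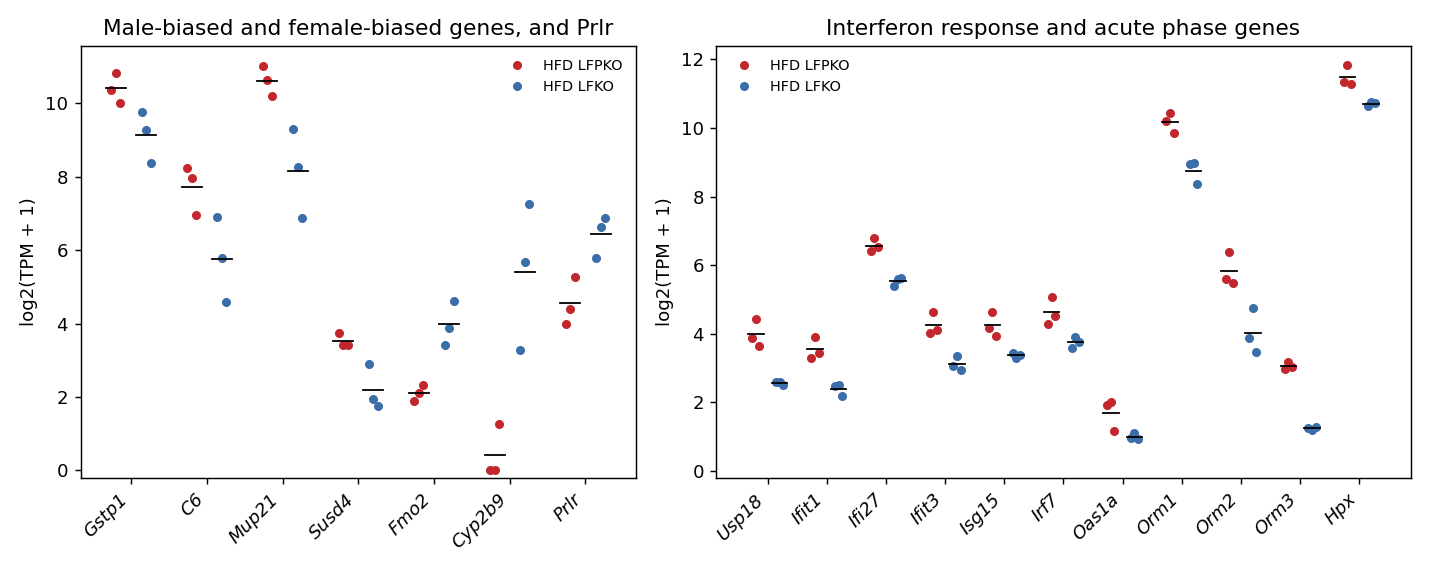
Level per library, as log2(TPM + 1), of male-biased and female-biased genes with Prlr (left) and of interferon and acute phase genes (right), with HFD LFPKO to the left of HFD LFKO, each point a library and each bar a group mean. Mup21 spans 1181 to 2068 TPM in HFD LFPKO and 116 to 635 TPM in HFD LFKO, and the points of Usp18 and Orm1 do not overlap between the groups.

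Other genes with the largest rises were of several kinds. Sult1e1, which sulphates and inactivates oestrogens, stood at 56.0, 5.25 and 24.95 TPM in HFD LFPKO, against 0.884, 1.48 and 0.455 TPM in HFD LFKO (log2 fold change 3.47, SE 0.73, limma adjusted p = 0.0034). Serpine2, a secreted thrombin inhibitor, stood at 13.1, 22.4 and 8.96 TPM in HFD LFPKO and at 1.52, 1.72 and 1.03 TPM in HFD LFKO (log2 fold change 2.63, SE 0.25, limma adjusted p = 5.3e-07). Serpina12, the hepatokine vaspin, stood at 38.4, 39.6 and 25.5 TPM in HFD LFPKO and at 6.75, 5.37 and 3.27 TPM in HFD LFKO (log2 fold change 2.55, SE 0.33, limma adjusted p = 2.1e-05). Sult1e1 varied widely among the HFD LFPKO libraries, with replicate 2 the lowest. None of the 3 genes overlapped between the groups, which the rule that picked them required. The B-cell linker gene Blnk (2.07), the oxidative stress-responsive gene Osgin1 (2.07) and the N-acetyltransferases Nat8 (1.82), Nat8f5 (1.86) and Nat8f7 (2.17) rose. Alas2, the haem synthesis enzyme of red cell precursors, rose by 2.02 with HFD LFPKO replicate 2 (12.6 TPM) near the HFD LFKO range of 8.65 to 11.3 TPM. It was also at 70.1 TPM in RD WT replicate 1. Of 5 red blood cell markers tested it was the 1 called, and the median log2 fold change was -0.23. The summed TPM of these markers overlapped, at 272.3 to 950.6 in HFD LFPKO and 262 to 1007 in HFD LFKO. Calls were lost for Alas2 without HFD LFKO replicate 3 or HFD LFPKO replicate 1 or 3, for Osgin1 without HFD LFKO replicate 2 or HFD LFPKO replicate 2 or 3, for Nat8f5 without HFD LFKO replicate 2 or 3, and for Nat8f7 without HFD LFPKO replicate 3. The signalling regulator Rgs3 (1.96, limma adjusted p = 0.049) lost its call whenever any of the 6 libraries was left out.

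Falls outside fat metabolism included Rtn4, the membrane-shaping reticulon, at 5.42, 10.9 and 9.34 TPM in HFD LFPKO, against 50.8, 71.1 and 78.9 TPM in HFD LFKO (log2 fold change -2.85, SE 0.31, limma adjusted p = 2.3e-06). Serpina7, the thyroxine-binding globulin, stood at 3.26, 6.39 and 7.22 TPM in HFD LFPKO and at 41.9, 44.2 and 45.4 TPM in HFD LFKO (log2 fold change -2.81, SE 0.52, limma adjusted p = 0.0011). The HFD LFKO libraries were close together for Serpina7 and all far above HFD LFPKO. The monocarboxylate carrier family gene Slc16a5 fell by 2.90. Conjugating enzymes went both ways, with 7 rises and 6 falls among 36 tested. Those are 19.4% and 16.7% of the list, against 1.85% higher and 8.74% lower among all genes tested. The glutathione transferase Gstt2 stood at 13.0, 11.4 and 21.0 TPM in HFD LFPKO and at 41.5, 73.4 and 96.5 TPM in HFD LFKO (log2 fold change -2.11, SE 0.30, limma adjusted p = 6.2e-05). Genes of glucose release (2 falls among 15) and glycolysis (2 falls among 16) gave few calls, and of 26 tested genes of insulin signalling and FoxO1 targets 1 rose and 1 fell. The shares that fell were 13.3%, 12.5% and 3.85%, against 8.74% of all genes tested.

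The same genotype contrast on the regular diet shares no library with the one on the HFD. There 536 genes were called (5.08%), 206 higher (1.95%) and 330 lower (3.13%) in RD LFPKO livers. After median-of-ratios scaling 368 were higher and 517 lower, and without Mup and mitochondrial-genome transcripts 618 were higher and 370 lower, so the larger side of the split turns round without those transcripts. Of the 922 genes lower on the HFD, 256 were also lower on the regular diet, which is 27.8% of the HFD list and 77.6% of the regular diet list. Of the 195 genes higher on the HFD, 74 were higher on the regular diet, 37.9% of the HFD list and 35.9% of the regular diet list, and no gene was called in opposite directions. After scaling the shared genes were 317 lower (48.2% of the HFD list and 61.3% of the regular diet list) and 145 higher (29.6% and 39.4%), with 3 genes in opposite directions. Leaving out RD LFKO replicate 1 lowered the regular diet count to 310, RD LFKO replicate 3 to 330 and RD LFPKO replicate 3 to 278, while median-of-ratios scaling gave 885 genes in all (8.39%). Mitochondrial oxidation fell at 18 of 23 genes on the regular diet (median log2 fold change -0.96), peroxisomal genes at 14 of 27, and 11 of 24 male-biased and 8 of 30 interferon genes rose. Cyp4a14 gave log2 fold changes of -7.05 on the HFD and -4.58 on the regular diet, and Cyp4a10 -5.99 and -3.99. Those differences between diets did not pass the test (limma adjusted p = 0.44 for Cyp4a14 and 0.43 for Cyp4a10).

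The test of the difference between diets called 13 of 10551 genes (0.123%), 3 with a higher (0.0284%) and 10 with a lower (0.0948%) log2 fold change on the HFD. Cyp2c40 and Cyp2c69, P450 genes of the Cyp2c family, were high in RD LFKO livers and in no group of the HFD contrast. Cyp2c40 averaged 1.03 ± 1.64 TPM in HFD LFPKO, 2.004 ± 0.921 TPM in HFD LFKO, 2.21 ± 1.68 TPM in RD LFPKO and 115 ± 52.7 TPM in RD LFKO (SD, n = 3 each; difference of log2 fold changes 4.39, limma adjusted p = 0.045). Cyp2c69 averaged 0.134 ± 0.163, 0.524 ± 0.336, 0.317 ± 0.0714 and 36.6 ± 18.9 TPM in the same groups (difference 4.27, limma adjusted p = 6.2e-04). Fgf21 followed the same pattern at lower levels, with a mean of 7.90 ± 3.21 TPM in RD LFKO and 1.23 ± 0.384 TPM in HFD LFKO (difference 1.86, limma adjusted p = 0.045). The calcium- and integrin-binding gene Cib3 averaged 10.4 ± 7.82 TPM in HFD LFPKO and 9.88 ± 1.96 TPM in HFD LFKO, but 98.2 ± 48.3 TPM in RD LFPKO and 6.90 ± 2.20 TPM in RD LFKO (difference -3.74, limma adjusted p = 0.045). With a pseudocount of 0.1 TPM in place of 1, limma called 0 genes in this test, with 959 at an unadjusted p under 0.05. The count lay between 1 and 12 when any 1 of the 12 libraries was left out, and was 1 without RD LFKO replicate 2, RD LFKO replicate 3 or HFD LFKO replicate 2.

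**Figure D4:**
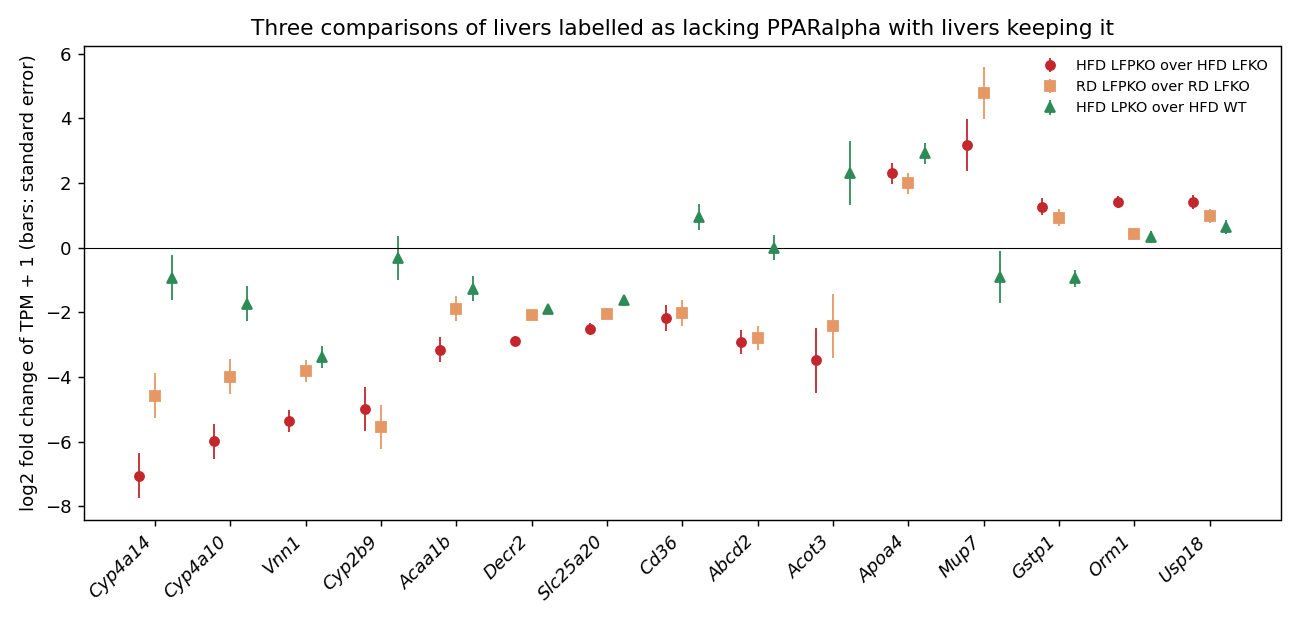
Log2 fold changes of TPM + 1 for 15 genes in HFD LFPKO over HFD LFKO, RD LFPKO over RD LFKO and HFD LPKO over HFD WT, with bars of 1 standard error. Decr2 and Slc25a20 lie below 0 in all 3 comparisons, whereas Cyp2b9 is at -4.99 and -5.55 without FoxO1 and at -0.33 with FoxO1. In HFD WT livers Cyp2b9 was already near the floor, at 2.13, 0.138 and 0.44 TPM, so a fall there had little room to appear.

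With FoxO1 present, fewer genes were called for the PPARα deletion on the same diet: HFD LPKO livers had 380 genes higher (3.6%) and 119 lower (1.13%) than HFD WT livers, 499 in all (4.73%). After median-of-ratios scaling 388 were higher and 339 lower, and without Mup and mitochondrial-genome transcripts 291 were higher and 394 lower. That total was 198 without HFD WT replicate 2, 238 without HFD LPKO replicate 1, 264 without HFD LPKO replicate 2, 889 without HFD LPKO replicate 3, and 147 when the 6 libraries were fitted alone. Of those 119, 90 were also among the 922 genes lower in HFD LFPKO, which is 75.6% of the HFD LPKO list and 9.76% of the 922; 39 of the 922 went the opposite way. After scaling, 163 of the 339 lower genes (48.1%) were among the 657 lower in HFD LFPKO (24.8%), and 36 of the 657 went the opposite way. Fat genes called lower in both backgrounds included Decr2, which fell by 2.89 in HFD LFPKO against HFD LFKO and by 1.88 in HFD LPKO against HFD WT, the pantetheinase Vnn1, by 5.36 and 3.38, and Slc25a20, by 2.51 and 1.63. Of the 23 mitochondrial oxidation genes 10 fell in HFD LPKO (median log2 fold change -0.48), and of the 27 peroxisomal genes 5 fell and 1 rose. These counts are before scaling, where the median over all genes was 0.11 here and -0.13 in HFD LFPKO over HFD LFKO. Among male-biased genes none rose and 4 of 24 fell in HFD LPKO livers, against 13 rises and no fall in HFD LFPKO livers. The 4 falls became 2 without HFD LPKO replicate 2 or without Mup and mitochondrial-genome transcripts, 1 without HFD LPKO replicate 1, and 0 without HFD WT replicate 2 or with the 6 libraries fitted alone.

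The difference between the backgrounds was tested gene by gene as the log2 fold change of HFD LFPKO over HFD LFKO minus that of HFD LPKO over HFD WT. It was called for 1179 genes (11.2%), with 70 above 0 (0.663%) and 1109 below 0 (10.5%); after median-of-ratios scaling the split was 232 above (2.2%) and 419 below (3.97%), and without Mup and mitochondrial-genome transcripts 344 above (3.27%) and 283 below (2.69%). Its median over all genes was -0.25 before scaling. The total was 2611 without HFD LFKO replicate 1 and 2034 without HFD LPKO replicate 3, and fell to between 431 and 610 without HFD WT replicate 2, HFD LFKO replicate 2 or 3, HFD LPKO replicate 1 or 2, or HFD LFPKO replicate 1. It was 130 when the 12 HFD libraries were fitted alone. Cyp4a14 had a difference of -6.13 (limma adjusted p = 0.0011), with means of 2.08 ± 1.79 TPM in HFD LFPKO, 467 ± 316 TPM in HFD LFKO, 6.99 ± 4.31 TPM in HFD LPKO and 16.1 ± 12.1 TPM in HFD WT (SD, n = 3 each). HFD LFKO livers were the highest of the 4 groups, as they were for Cyp2b9 (-4.66), Abcd2 (-2.92) and Cd36 (-3.12). With FoxO1 present Cyp2b9 averaged 0.476 TPM in HFD LPKO and 0.904 TPM in HFD WT, and Abcd2 0.957 and 0.972 TPM. At such levels a fall had little room to appear. Of 23 mitochondrial oxidation genes 14 had a difference below 0 before scaling and 6 after it. For 27 peroxisomal genes these counts were 13 and 7, with none above 0 in either list. Of 24 male-biased genes 11 had a difference above 0 and none below, among them Mup7 (4.08) and Gstp1 (2.22). That count fell to 3 without HFD WT replicate 2 and when the 12 HFD libraries were fitted alone, to 4 without HFD LFKO replicate 3, HFD LPKO replicate 1 or HFD LFPKO replicate 1, to 5 without HFD LPKO replicate 2 or without a filter on low values, and to 7 without HFD LFKO replicate 2.

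Cholesterol synthesis genes differed between the backgrounds. SREBP2 drives this pathway when cells are short of sterol, from Hmgcs1 at its start to Sqle and Cyp51 at the steps that form and trim the sterol rings. In HFD LPKO livers 21 of 24 tested genes rose against HFD WT (87.5%, against 3.6% of all genes tested) and none fell (median log2 fold change 1.75). In HFD LFPKO against HFD LFKO, by contrast, none rose, 3 fell and the median was -0.05. Those 3 falls are 12.5% of the list, against 8.74% of all genes tested. The HFD LFPKO count was 1 rise and 2 falls after scaling, 2 and 2 without Mup and mitochondrial-genome transcripts, 1 and 6 without HFD LFKO replicate 1, and no call without HFD LFKO replicate 3 or with the 6 libraries fitted alone; it was 1 fall without HFD LFKO replicate 2 or HFD LFPKO replicate 1 or 2. The difference was called below 0 for 22 of the 24 genes (91.7%, against 10.5% of all genes tested), and for 21 after scaling. It was below 0 for 18 when the 12 HFD libraries were fitted alone, and for between 19 and 23 when any 1 of the 12 was left out. Sqle averaged 30.2 ± 6.76 TPM in HFD LFPKO and 22.5 ± 2.62 TPM in HFD LFKO, and 47.2 ± 14.1 TPM in HFD LPKO and 4.34 ± 0.933 TPM in HFD WT (SD, n = 3 each; difference of log2 fold changes -2.76, SE 0.36, limma adjusted p = 2.4e-04). Idi1, the isopentenyl isomerase, averaged 77.7 ± 28.2 TPM in HFD LFPKO and 77.0 ± 2.29 TPM in HFD LFKO, and 133 ± 21.1 TPM in HFD LPKO and 17.7 ± 4.46 TPM in HFD WT (difference -2.90, SE 0.36, limma adjusted p = 1.9e-04). For both genes HFD WT was far below the other 3 groups, and the means of both groups that lack FoxO1 lay between it and HFD LPKO.

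Cyp51, the sterol demethylase, averaged 39.1 ± 7.27 TPM in HFD LFPKO, 38.7 ± 0.732 TPM in HFD LFKO, 75.1 ± 13.5 TPM in HFD LPKO and 11.6 ± 1.39 TPM in HFD WT (difference -2.58, SE 0.26, limma adjusted p = 1.2e-05). Hmgcs1 averaged 74.5 ± 15.01, 63.4 ± 12.9, 114 ± 28.7 and 15.8 ± 1.70 TPM in the same groups (difference -2.51, limma adjusted p = 0.0023). The sterol sensor Insig1 (-1.73), the regulator Srebf2 itself (-1.18) and the late-step reductase Tm7sf2 (-2.14) showed differences of the same sign. The genes that fell in HFD LFPKO against HFD LFKO included Tm7sf2 (-0.74) and Hsd17b7 (-0.65). Hsd17b7 lost its call under both other scalings and without HFD LFKO replicate 2 or 3 or HFD LFPKO replicate 2 or 3, and Tm7sf2 without HFD LFKO replicate 3 or HFD LFPKO replicate 1 or 2.

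**Figure D5:**
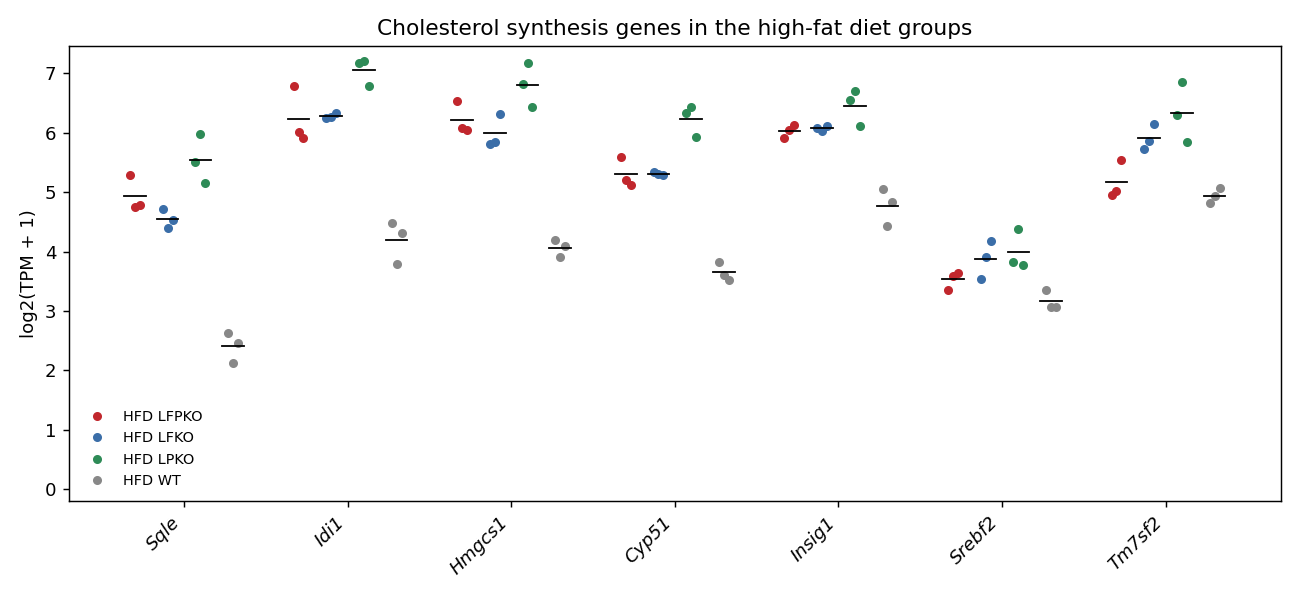
Level per library, as log2(TPM + 1), of 7 cholesterol synthesis genes in HFD LFPKO, HFD LFKO, HFD LPKO and HFD WT livers, from left to right, each point a library and each bar a group mean. HFD WT is the lowest group for Sqle (4.34 TPM on average) and HFD LPKO the highest (47.2 TPM), with HFD LFPKO and HFD LFKO between them.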

How the data were processed

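The labels' protocols name Trizol for liver RNA and the TruSeq Stranded mRNA kit for the libraries. The authors deposited 1 table of gene TPM values, made with kallisto on GRCm38/mm10 per the submitters' processing notes; no source used here gives the kallisto version or the annotation. TPM keeps no read depth, so no counting interval can be given.

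The 34945 named genes of the table were reduced to 10551 with a mean of at least 1 TPM over all 24 libraries; 13131 genes were at 0 in every library and 1 line without a name was left out. Values were tested as log2(TPM + 1), which understates the change of low genes, with limma 3.58.1 in R 4.3.3 (trend prior, 8 group means, 16 residual degrees of freedom, two-sided, Benjamini-Hochberg over all genes tested, call at adjusted p under 0.05). With 3 libraries a group, the smallest p of an exact two-sided permutation test is 0.1, so none was run on single genes. Tables and figures were made with Python 3.11.15, pandas 2.3.3, numpy 2.4.6 and matplotlib 3.10.9. The test was tried on simulated data with planted changes.

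Named genes were Foxo1 and Ppara, the 15 highest and 15 lowest called log2 fold changes without overlap between groups and with at least 5 TPM in the higher group, 5 each way for each difference test, and up to 4 members of each list described with the smallest adjusted p, with list-defining members and called members against the list's direction. Some genes that this rule names are not reported here. The 52 gene lists (857 distinct members, 737 tested), the members and the rules were chosen with earlier results of these data known. Alternatives were another pseudocount, other filters, median-of-ratios scaling, Mup and mitochondrial-genome transcripts left out, only the compared groups in the fit, a replicate block, no trend prior, and each library left out in turn.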

Additional observations from a re-analysis of the deposited data

Results flagged for a closer look

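The PPARα deletion had different log2 fold changes between the diets for 13 genes by the test of the difference itself (HFD minus RD, in livers without FoxO1). The differences were 4.39 for Cyp2c40, 4.27 for Cyp2c69 and 1.86 for Fgf21, and -3.74 for Cib3, -3.38 for Cebpe, -2.69 for Rasgef1b, -1.69 for Errfi1 and -1.51 for Etfbkmt. Cebpe, a myeloid transcription factor gene, was listed at 0 in all 3 RD LFKO libraries, so its size depends on the pseudocount. Errfi1, a feedback inhibitor of EGF receptor signalling, averaged 371 ± 91.7 TPM in HFD LFPKO and 431 ± 48.7 TPM in HFD LFKO, and 485 ± 80.9 TPM in RD LFPKO and 181 ± 54.8 TPM in RD LFKO (SD, n = 3 each). After median-of-ratios scaling, Cyp2c69 and Cib3 were the only ones of these 8 genes still called.

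On the HFD the deletion had different log2 fold changes without and with FoxO1 for 1179 genes by the test of that difference. Above 0 stood Mup7 (4.08), Mup1 (3.36), Mup12 (2.90), Mup14 (2.86) and Angptl8 (2.85), an insulin-responsive lipase inhibitor that averaged 38.2 ± 16.7 TPM in HFD LFPKO and 13.9 ± 6.43 TPM in HFD LFKO, and 8.95 ± 3.80 TPM in HFD LPKO and 28.2 ± 15.3 TPM in HFD WT (SD, n = 3 each). Below 0 stood Cyp4a14 (-6.13), Acot3 (-5.80), Hamp2 (-5.42), Cyp2b9 (-4.66), Scd1 (-4.39) and Fmo2 (-2.88). Hamp2, a hepcidin gene, spread widely in HFD LFPKO (172 ± 226 TPM) and lost its call after scaling (limma adjusted p = 0.071). The cholesterol genes Idi1 (-2.90), Sqle (-2.76), Cyp51 (-2.58), Hmgcs1 (-2.51), Tm7sf2 (-2.14), Insig1 (-1.73) and Srebf2 (-1.18) were below 0 as well.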

How the results depend on the processing

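These checks covered 101 genes called in the main comparison and picked for naming, some of which are not reported here. Of the 101, 78 kept the call when any 1 of the 6 libraries was left out and 58 under all 8 other alternatives, with 7 more under the 7 that tested them. The 6 libraries fitted alone lost the call of 35; none of the called gene values changed sign. The count of that comparison lay between 551 and 2438 across libraries left out, and was 267 with the 6 libraries fitted alone. On the regular diet the count was 885 after median-of-ratios scaling, 988 without Mup and mitochondrial-genome transcripts, and 278 to 445 with 1 library left out. For HFD LPKO against HFD WT it was 147 with the compared groups alone and 198 to 889 with 1 library left out. The difference between diets gave 0 calls with the pseudocount of 0.1 (limma, 959 at an unadjusted p under 0.05), 5 without a filter, 3 without Mup and mitochondrial-genome transcripts, 3 with the compared groups alone, 1 without the trend prior, and 1 to 12 with 1 library left out. The difference between FoxO1 backgrounds gave 651 after scaling, 627 without Mup and mitochondrial-genome transcripts, 130 with the compared groups alone, and 431 to 2611 with 1 library left out. Ppara, which was not called, ranged over -0.12 to 0.23 with 1 library left out, the negative value without HFD LFKO replicate 1. The cause of these shifts was not tested.

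Leaving out Mup or mitochondrial-genome transcripts alone, the overlaps of calls after scaling, and the list counts for the groups with FoxO1 were alternatives chosen after seeing the data.

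Replicate numbers are shared across groups in the labels, and nothing says that a number marks a shared litter or day. Deviations of same-numbered libraries of the main comparison correlated at 0.32, 0.093 and 0.39, and each library correlated best with its own number, a hint from the data only. The other comparisons did not share it. Same-numbered libraries there correlated at -0.13, -0.062 and -0.0045 for RD LFPKO with RD LFKO, and at -0.2, -0.014 and 0.099 for HFD LPKO with HFD WT. With the replicate number as a block the counts were 1053 in the main comparison, 510 on the regular diet, 466 for HFD LPKO against HFD WT, 4 for the difference between diets and 1053 for the difference between backgrounds. Depth is unknown from TPM.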

Other observations

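These genes were chosen after their values were seen. Gm8116, a processed pseudogene at chr9:78820638-78821838 on the minus strand (GRCm38), was listed at 0 in all 6 LFPKO libraries of both diets, at 7.92 to 8.94 TPM in all 6 LFKO libraries, and at 0 in the 12 libraries of the other groups. Gm20075 was at 0, 0.210 and 0 TPM in HFD LFPKO and at 3.98, 4.18 and 4.41 TPM in HFD LFKO. The interferon-inducible gene Ifi202b was listed at 0 in all 3 HFD LFPKO libraries and at 2.29 to 4.17 TPM in HFD LFKO, but at 4.24, 0 and 0 TPM in RD LFPKO and 2.13, 2.70 and 3.10 TPM in RD LFKO, and it was also listed at 0 in 1 HFD LPKO and 1 HFD WT library, while Gm37116 was at 1.76 to 2.71 TPM in HFD LFPKO and listed at 0 in HFD LFKO. What sets these patterns was not tested.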
